A study of Mus musculus with 3 samples.

Results

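Red cell precursors of the mouse embryo were compared in 201 nuclei of an E13.5 library, in which 35 nuclei carried the cluster number 11 and 166 the cluster number 5 in the table deposited by the authors. Both numbers were taken from that table for this library only, out of 970 nuclei at E13.5 and 1879 in the whole series. The series profiled chromatin accessibility by single-nucleus ATAC-seq, in which the transposase Tn5 inserts sequencing adapters into accessible DNA, in wild-type (WT) C57BL/6JRj embryos with 1 library for each of 3 stages, E12.5 and E13.5 and finally E15.5. Nuclei came from frozen embryo sections, were stained with 7-AAD and sorted by flow cytometry, and sections were not split by tissue, so a nucleus could stem from any blood-containing site in them. With 1 library there was no replicate and no test. All intervals are 95% intervals that cover counting error only, and since the clusters had themselves been made from the accessibility of these nuclei, every difference between them is a description.

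Red cells form in successive waves. Primitive erythroblasts arise in the yolk sac, enter the circulation while still nucleated and use embryonic globins, whereas definitive erythroblasts of the fetal liver use adult globins. In both, GATA1 (the master regulator of the lineage), TAL1, LMO2 and LDB1 act at distal enhancers and at the promoters of red cell genes, and KLF1 binds CACCC boxes. As the cells mature, they stop dividing, the nucleus condenses, transcription declines, and in mammals the nucleus is finally expelled. The question was which chromatin was still accessible in cluster 11, the cluster with the highest share of fragments at promoters.

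The erythroid label held for both clusters. In an 80 kb stretch around the beta-globin genes, cluster 11 had 281 and cluster 5 had 280 of every 1000000 fragments, a level called here the scale of all fragments, against 13.3 in all other nuclei of the library. Across 90 kb around the alpha-globin genes the levels were 864, 439 and 94.9. Of the 35 nuclei of cluster 11, 34 had a fragment at the alpha-globin and 31 at the beta-globin stretch. The 5 marker genes were less telling at their own annotated promoters in cluster 11, where Hbb-y had 3 fragments, Hbb-bh1 had 2, Hba-x had 1, Klf1 had 11 and Gata1 had 0. Gata1 reached 15 fragments in cluster 11 when the windows of all its annotated start sites were joined. Markers of 9 other cell types (neurons, neural progenitors, mesenchyme, muscle, hepatocytes, endothelium, white blood cells, megakaryocytes and epithelium) were low: 48 of 59 promoters had no fragment in cluster 11, beside 69.3% of all promoters with as few fragments in cluster 5 (1 to 109), the highest had 5 (Kdr, an endothelial receptor), and their summed level was 126 of every 1000000 promoter fragments (the promoter scale, on which ratios are given unless stated) against 488 in cluster 5 and 1302 in all other nuclei. The 7 endothelial markers had 7 fragments in cluster 11 and 58 in cluster 5, a ratio of 1.17 (0.451 to 2.57) at main start sites that was 0.721 over all start sites, 0.720 over gene bodies and 0.671 with cluster 5 thinned. Ratios over gene bodies or whole genes are scaled throughout to the fragments counted over all genes (the gene scale). Those over all start sites have a scale of their own too. No barcode of either cluster shared 10% or more of its fragments with another barcode, the highest share being 2.31%, and 1 barcode sequence was also used in the E15.5 library.

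Nuclei of cluster 11 were shallow. They held 3830 to 39458 fragments with a median of 12478, against 3029 to 317127 with a median of 62521 in cluster 5, for 516395 and 13046765 fragments in all. The duplicate share of read pairs had medians of 55.7% and 56.0%, and the mitochondrial share medians of 0.603% and 0.630%. The lower depth was unevenly spread over the genome. The median number of fragments in promoter windows (1000 bp upstream to 100 bp downstream of the start site of a protein-coding gene) was 4253 in cluster 11 and 9274 in cluster 5, a ratio of 0.459, whereas the median number of fragments farther than 2 kb from any annotated start site was 4165 and 35799, a ratio of 0.116.

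Promoter windows took 33.7% of all cluster 11 fragments (33.6 to 33.9) and 12.97% of all cluster 5 fragments (12.95 to 12.99), and between 4.75% and 12.04% in the other 10 clusters of this library. The median over nuclei was 36.9% (13.8% to 52.3%) in cluster 11 and 17.6% (3.85% to 36.5%) in cluster 5. The ranges overlapped: 100 nuclei of cluster 5 were at or above the lowest nucleus of cluster 11, and 15 nuclei of cluster 11 were at or below the highest of cluster 5. Cluster 5 was itself mixed, since 51 of its nuclei had under 10% of their fragments at promoters. In both clusters the share was lower in deeper nuclei (Pearson's r with the log10 of depth of -0.43 over 35 nuclei and -0.55 over 166, nuclei of 1 library that share its handling). With each nucleus thinned to 1000 fragments, the shares were 35.5% and 16.8%.

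**Figure D1:**
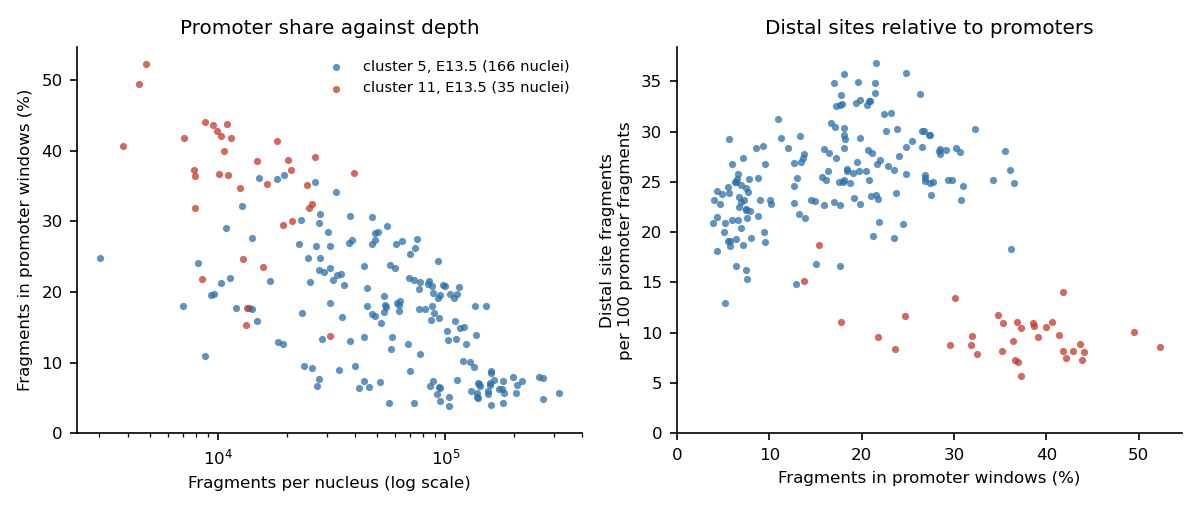
Each point is an E13.5 nucleus of cluster 11 (red, 35 nuclei) or cluster 5 (blue, 166 nuclei). On the left, the percentage of fragments in promoter windows is plotted against fragments per nucleus on a log axis; on the right, fragments at distal sites chosen through cluster 5 of the other libraries, per 100 promoter fragments, are plotted against the promoter share. Cluster 11 overlaps cluster 5 in promoter share, but 31 of its 35 nuclei lie below every cluster 5 nucleus in the right panel. The right panel divides by promoter fragments, whose high share singled out cluster 11.

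Intronic and intergenic fragments were both a smaller share of cluster 11. Introns beyond 2 kb of a start site held 15.6% of cluster 11 fragments and 33.0% of cluster 5 fragments, and intergenic DNA held 16.1% and 28.7%. Exons beyond 2 kb held 2.06% and 3.55%, and the zone within 2 kb of any start site held 66.2% and 34.7%. As means per nucleus, intronic fragments were 2308 in cluster 11 and 25944 in cluster 5, while those near start sites were 9766 and 27307.

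Insertions peaked 50 bp upstream of the start site in both clusters, but the peak was higher and broader in cluster 11. TSS enrichment, the density within 50 bp of a start site over that in the outermost 100 bp of a window reaching 2000 bp to each side, was 34.2 (33.3 to 35.2) in cluster 11 and 17.3 (17.2 to 17.4) in cluster 5. The peak was 340 bp wide at 50% of its height above the flanks in cluster 11 and 260 bp in cluster 5. At 510 bp into the gene the relative density was 8.49 against 3.92, beside peaks of 35.4 and 18.6. That gap thus largely follows the height of the peaks. Downstream of the start site, where the first nucleosome of a transcribed gene is usually found, the profile of cluster 5 dipped to 6.26 and recovered to 7.76, while that of cluster 11 went from 16.3 to 16.6, a far shallower dip. Fragments were also shorter. Those shorter than the DNA wrapped around a nucleosome, called nucleosome-free, made up 71.9% of cluster 11 and 62.1% of cluster 5, and the median length was 73 and 99 bp. The difference held within promoter windows (81.5% and 73.8%) and outside them (66.96% and 60.3%).

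**Figure D2:**
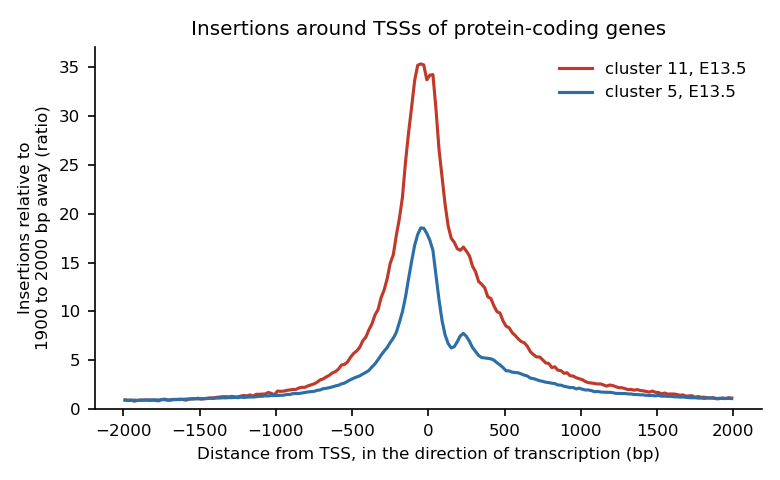
Tn5 insertions by distance from the start sites of protein-coding genes, in 20 bp steps along the direction of transcription, relative to the density in the outermost 100 bp of the window (ratio, y axis). The curve of cluster 11 peaks at 35.4 and that of cluster 5 at 18.6, and the cluster 11 curve is broader downstream of the start site.

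Distal elements were then examined on sites chosen in the other libraries, where the outcome depended on how they were chosen. A distal site was a 1 kb bin with no base within 2 kb of an annotated start site and with at least 8 fragments in the 20 cluster 5 nuclei of the E12.5 and E15.5 libraries, which gave 3469 sites. In E13.5 these sites held 16491 fragments of cluster 11 and 431165 of cluster 5. For every 100 promoter fragments there were 9.47 distal site fragments (9.32 to 9.62) in cluster 11 and 25.5 (25.4 to 25.6) in cluster 5. Over nuclei the median was 9.63 (5.73 to 18.7) and 25.3 (12.9 to 36.9), and 4 nuclei of cluster 11 and 10 of cluster 5 lay where the ranges overlapped. Since these sites had passed only through cluster 5 nuclei, the choice itself favoured cluster 5. In the 1475 bins chosen instead through the 8 cluster 11 nuclei of the other libraries, with at least 3 fragments there, the counts were 5.47 and 6.35 for every 100 promoter fragments, a ratio of 0.860 (0.842 to 0.878) in place of 0.372. In the 370 bins that met both minimums the ratio was 0.795 (0.776 to 0.815). Per promoter fragment cluster 11 was thus lower under both choices, by differing amounts. That measure divides by promoter fragments, whose high share is what singled out cluster 11, so a lower value follows in part from the scale. On the scale of all fragments the direction depended on the choice. Sites chosen through cluster 5 took 3.19% of all fragments in cluster 11 and 3.30% in cluster 5, a ratio of 0.966 (0.951 to 0.981), and those chosen through cluster 11 took 1.84% and 0.824%, a ratio of 2.24 (2.19 to 2.28). These 2 ratios are against all of cluster 5. For every 100 promoter fragments, the 100 cluster 5 nuclei with a promoter share in the range of cluster 11 had 26.8 fragments at sites chosen through cluster 5. Those nuclei had 21.0% of their fragments at promoters, against 12.97% in all of cluster 5. The ratio of 0.966 can therefore not be carried over to them, and their ratio on the scale of all fragments was not computed. Promoters chosen by the same cluster 5 nuclei of the other libraries, with at least 10 fragments there, had a summed ratio of 1.09 (6215 promoters). They hold most of the promoter fragments that set this scale in both clusters. A value near 1 was thus largely fixed beforehand and says little about promoters. The sites chosen through cluster 5 held a median of 3.41% of all fragments in nuclei of cluster 11 (1.97% to 5.87%) and 4.53% in those of cluster 5 (0.670% to 9.99%), so on this scale the clusters overlapped widely.

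Among the classes named here of sites chosen through cluster 5, those restricted to red cells had the lowest ratio, in a class that was itself defined by a high level in cluster 5. Sites whose level in cluster 5 of the other libraries was at least 4 times that of the non-erythroid clusters 0, 1, 3 and 6 to 10 there (2734 sites) had a ratio of cluster 11 over cluster 5 of 0.239 (0.234 to 0.244). The other 735 sites had a ratio of 0.809 (0.791 to 0.827). With sites and class both taken from cluster 11 of the other libraries, the ratios were 0.817 (0.798 to 0.837) for 1404 restricted sites and 1.11 (1.0600 to 1.17) for the other 71. Sites that looked like CpG islands (117 sites with at least 50% GC and a CpG observed over expected of at least 0.6) had a ratio of 1.09 (1.05 to 1.14) and supplied 15.2% of distal site fragments in cluster 11 against 5.17% in cluster 5. The 132 sites with a match to the core motif of CTCF, the factor of chromatin loop boundaries, had a ratio of 0.675 (0.632 to 0.721).

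Sites chosen through cluster 5 also differed by motif. The composite motif of TAL1 and GATA1, matched here as CTG and AGATAA separated by 8 bases on either strand, was present in 7.90% of the sites and in 1.24% of distal bins sampled across the genome. Sites with it had a ratio of 0.257 (0.243 to 0.272) and sites without it 0.386 (0.379 to 0.392). KLF-type CACCC boxes (CCACACCC, CCGCACCC, CCACGCCC or CCGCGCCC on either strand) were in 23.2% of sites and 8.22% of distal bins, and the sites with them had the higher ratio, 0.482 (0.469 to 0.495) against 0.331 without, the reverse of the composite motif. A plain GATA match (the string AGATAA with its variant AGATAG, or the string TGATAA with its variant TGATAG, on either strand) was in 87.9% of sites and in 89.6% of all distal bins, and the 3050 sites with it had a ratio of 0.327 (0.321 to 0.333) against 0.7504 (0.725 to 0.777) in the 419 without. A match is a string of letters in a bin and not a bound site. All KLF-type strings but CCACACCC hold a CpG, and the GATA strings hold none. These classes can therefore also sort sites by base composition, and motif and composition were not separated.

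**Figure D3:**
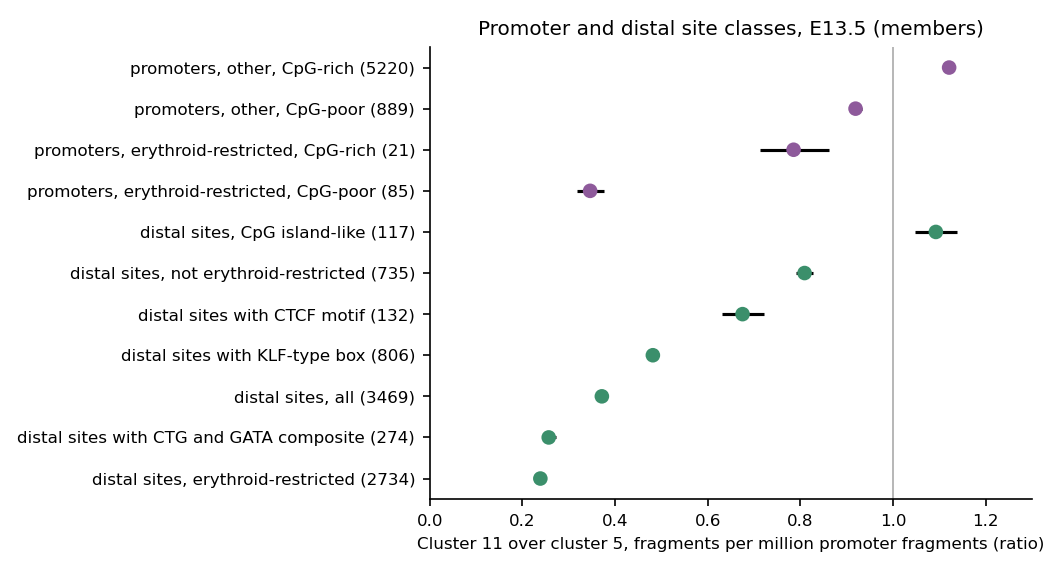
Ratio of cluster 11 over cluster 5 in summed fragments on the promoter scale (x axis, linear) for classes of promoters (purple) and distal sites (green) that were chosen through cluster 5 of the E12.5 and E15.5 libraries, a choice that favours cluster 5, with the number of members in parentheses and 95% counting intervals as bars. Of the classes drawn, erythroid-restricted distal sites (0.239) and distal sites with the composite motif (0.257) lie lowest, followed by CpG-poor erythroid-restricted promoters (0.346). CpG island-like distal sites (1.09) and other CpG-rich promoters (1.12) lie above 1.

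Promoters chosen through cluster 5 followed a similar division, which was not seen in a set chosen through cluster 11 with a lower minimum. Those with at least 10 fragments in cluster 5 of the other libraries and at least 4 times the level of the non-erythroid clusters numbered 106, with a summed ratio of 0.463 (0.435 to 0.492) in E13.5 and a median of 0.331, and 66 of them (62.3%) were at or below 0.5, beside 14.8% of all promoters chosen in this way. Both the minimum and the restriction were set on cluster 5, a choice that favours a lower ratio. The other 6109, which hold most of the fragments that set the scale, had a summed ratio of 1.097 (1.09 to 1.103) and a median of 1.057. Among the erythroid-restricted promoters, the 85 that were CpG-poor had a ratio of 0.346 (0.318 to 0.376) and the 21 that were CpG-rich 0.785 (0.714 to 0.863). On the scale of all fragments the erythroid-restricted promoters were at 1.203 and the others at 2.85. This change of scale multiplies every promoter ratio by the same factor, so it moved the first value above 1 and could not change the order. Of the 2886 promoters with at least 5 fragments in cluster 11 of the other libraries, the 155 with at least 4 times the level of the non-erythroid clusters, by the level of cluster 11, had a ratio of 1.39 (1.34 to 1.44) and the others 1.23 (1.22 to 1.24). The choosing cluster, the minimum and the cluster whose level defined restriction all differed between these 2 sets, and their parts in the turn were not separated. CpG-rich promoters (at least 50% GC and a CpG observed over expected of at least 0.6 between 250 bp upstream and 50 bp downstream) as a whole took 86.6% of promoter fragments in cluster 11 and 80.7% in cluster 5.

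Promoters were also compared singly. A promoter met the minimum where cluster 11 and cluster 5 thinned to the same total of fragments had at least 20 fragments together, which 5013 of 21911 promoters did. Their median ratio was 1.199. At least 2-fold higher in cluster 11 were 445 promoters (8.88% of those that met it) and at least 2-fold lower were 131 (2.61%), and each of these had an interval that excluded 1. Tmem175 (2.0002) and Dimt1 (1.999) stood on either side of the upper limit, and Ifngr1 (0.496) and Sdf2l1 (0.501) of the lower. On the scale of all fragments every ratio was higher by 1.38 on the log2 scale, which turned the counts to 4370 higher and 16 lower. A promoter with no fragment in cluster 11 met the minimum only with 20 in the thinned cluster 5, and none did. Among the 6215 promoters chosen in the other libraries instead, 328 were higher and 920 lower, of which 813 had an interval below 1, and the median ratio was 1.05. The balance of higher and lower promoters thus turned with the way they were chosen.

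The promoter sequences of 3 genes, picked after their values were seen, are given here, from 250 bases before to 50 bases after the start site (bases of the GRCm38 assembly, the build also called mm10). Capitals mark GATA and KLF-type matches as spelled above, of which GATA matches are in 27.6% and KLF-type matches in 16.2% of all promoters of this length. Atg16l2 had the highest ratio of those named for cluster 11, and its promoter has neither match.
Atg16l2 promoter, chr7:101302202-101302501, minus strand: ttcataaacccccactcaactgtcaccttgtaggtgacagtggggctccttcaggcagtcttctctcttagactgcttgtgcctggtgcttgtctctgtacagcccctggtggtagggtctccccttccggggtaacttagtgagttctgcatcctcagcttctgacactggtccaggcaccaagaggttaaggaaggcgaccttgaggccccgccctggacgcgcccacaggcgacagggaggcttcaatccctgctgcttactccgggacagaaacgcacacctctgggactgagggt
Klf1 and Lmo2 were low in cluster 11, and hold 1 and 4 GATA matches. Neither was among the 10 firmest lower promoters, and Lmo2 (1 and 324 fragments) did not meet the minimum.
Klf1 promoter, chr8:84901678-84901977, plus strand: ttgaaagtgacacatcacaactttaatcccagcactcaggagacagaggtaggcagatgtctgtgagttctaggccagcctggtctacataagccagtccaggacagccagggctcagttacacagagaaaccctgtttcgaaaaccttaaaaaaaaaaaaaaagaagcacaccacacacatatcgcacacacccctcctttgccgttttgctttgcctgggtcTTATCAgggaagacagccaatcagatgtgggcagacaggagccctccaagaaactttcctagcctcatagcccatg
Lmo2 promoter, chr2:103957736-103958035, plus strand: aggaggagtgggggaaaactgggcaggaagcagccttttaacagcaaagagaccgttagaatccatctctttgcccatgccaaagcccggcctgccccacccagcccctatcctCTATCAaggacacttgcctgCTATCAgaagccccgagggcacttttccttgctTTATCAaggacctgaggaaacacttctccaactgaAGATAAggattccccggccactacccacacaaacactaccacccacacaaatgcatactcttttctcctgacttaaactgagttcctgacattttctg
The window holds 8 CpG dinucleotides in Atg16l2, 3 in Klf1 and 4 in Lmo2, and none of the 3 counts as CpG-rich. Over all promoters that met the minimum, those with a GATA match had a median ratio of 1.12 and those without 1.21. For the KLF-type match the medians were 1.24 with it and 1.18 without.

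The 10 promoters with the firmest higher ratios were those of Atg16l2, Baiap2l1, Pafah1b3, Rragd, Hmox1, Radil, Rel, March9, Fam214b and Krtcap3. Atg16l2, related to the autophagy factor ATG16L1, had 46 fragments in 18 nuclei of cluster 11 and 38 fragments in 28 nuclei of cluster 5, a ratio of 11.8 (7.49 to 18.6). Hmox1 encodes heme oxygenase 1, which breaks down heme, and had 28 fragments in cluster 11 in 18 nuclei and 35 in 27 nuclei of cluster 5, a ratio of 7.77 (4.55 to 13.2). Rragd, a Rag GTPase that signals nutrient status at the lysosome, had 32 and 41 fragments and a ratio of 7.58 (4.62 to 12.3). Rel, an NF-kappaB subunit, had 47 and 73 and a ratio of 6.25 (4.24 to 9.15). No single nucleus gave more than 15.8% of the cluster 11 fragments at any of these 10 promoters. Their levels in cluster 11, between 126 and 385 on the promoter scale, were set beside 35.8 to 135 in all other nuclei of the library. Both gaps were favoured by the choice, which took promoters high in cluster 11 that met the minimum mostly through its fragments, and are given as a description. On the scale of all fragments their ratios were higher still.

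Replication-dependent histone genes filled most of the other end. Of the 10 promoters with the firmest lower ratios, 7 belonged to the Hist1 cluster on chromosome 13 (Hist1h2ak, Hist1h2bn, Hist1h4a, Hist1h2an, Hist1h2bc, Hist1h2bp and Hist1h2ac), and the other 3 were Anp32e, a chaperone that removes the histone variant H2A.Z, Mpp2, a membrane scaffold, and Efhd2. Hist1h4a had 4 fragments in cluster 11 and 569 in cluster 5, a ratio of 0.068 (0.019 to 0.176), and Hist1h2ak had 1 and 413. Some neighbours in this cluster are arranged head to head and share parts of their windows, and their near-identical copies can lose reads, so the single values are not independent. Over all 63 measured promoters of this family, a group chosen after these values were seen, cluster 11 had 227 fragments and cluster 5 had 17201, a summed ratio of 0.128 (0.112 to 0.146) that was also below 1 (0.333) on the scale of all fragments. All 16 of them that met the minimum were at least 2-fold lower, beside 2.61% of all promoters that did.

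Other genes of division varied. The 26 genes of the cell cycle and DNA replication list had a summed ratio of 0.702 (0.636 to 0.773), which was 1.82 on the scale of all fragments and 1.12 over gene bodies on the gene scale, and none of the 13 that met the minimum passed 2-fold in either direction, beside 8.88% higher and 2.61% lower among all promoters (median 0.871 beside 1.199). Cdk1, the kinase that drives mitosis, had 0 fragments in cluster 11 and 204 in 89 nuclei of cluster 5, at least 7.00-fold lower when 3 counts are taken as the floor over the cluster, and none of its further annotated start sites or its gene body had a fragment either. Ccnd2, a cyclin of early G1 phase, had 0 and 65, at least 2.23-fold lower. Pcna (1.27, with 32 and 244 fragments), the clamp of DNA polymerase, and Ccnd3 (1.41, with 10 and 69), the cyclin tied to the last divisions of red cell precursors, were at the high end of the list, with intervals that included 1. Over all start sites Ccnd3 was at 0.898 (81 and 935 fragments), and Mcm7, a subunit of the replicative helicase, was the highest at 1.49 (77 and 537), against 0.457 at its main start site.

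**Figure D4:**
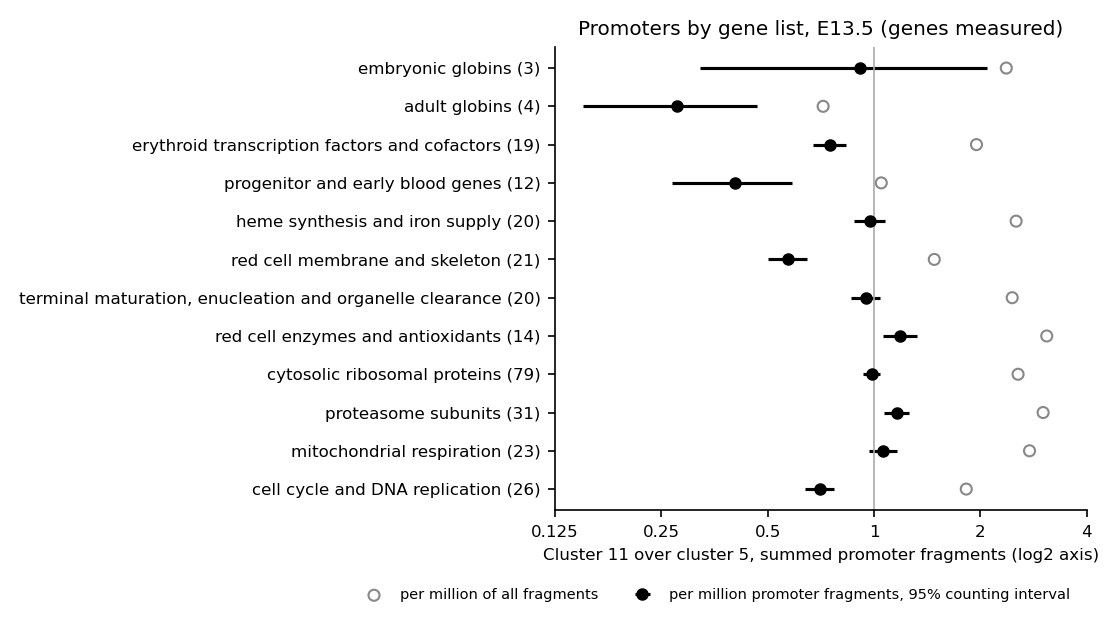
Summed promoter fragments of each gene list, cluster 11 over cluster 5 (log2 axis), on the promoter scale (black points, 95% counting intervals) and on the scale of all fragments (open circles); the number of measured genes stands beside each name. Adult globins (0.276) and progenitor genes (0.403) lie farthest below 1 on the first scale among the 12 lists drawn, which leave out the markers of other cell types. On the second scale the adult globins (0.717) alone among these 12 lie below 1.

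The regulators of the lineage split. The 19 erythroid transcription factors and cofactors had a summed ratio of 0.7499 (0.672 to 0.835), which was 1.95 on the scale of all fragments, and 2 of 7 that met the minimum were at least 2-fold lower (Klf1 and Nfe2) with none higher, beside 2.61% lower and 8.88% higher among all promoters. Klf1, an activator of adult globin and many red cell genes, had 11 fragments in 7 nuclei of cluster 11 and 418 in 118 nuclei of cluster 5, a ratio of 0.256 (0.127 to 0.462). Its whole gene with 2 kb upstream was at 1.66 on the gene scale, where the median gene was at 1.25. Nfe2, the factor of globin control regions, had 17 and 524, a ratio of 0.315 (0.182 to 0.510), with 0.527 over all its start sites and 1.19 over the gene on the gene scale. Lmo2, the bridge of the TAL1 and GATA1 complex, had 1 and 324, and stayed low over all its annotated start sites with 10 and 590, a ratio of 0.176 (0.084 to 0.325). Bcl11a, which silences embryonic globin genes in definitive cells, had 0 and 158, at least 5.42-fold lower, and over all its start sites 0 and 273. Sox6, its partner in that role, had 2 and 274 over all its start sites. Ikzf1, a zinc finger factor of blood cells, had 0 and 140 at its first start site and 12 and 382 over all of them, a ratio of 0.325 (0.167 to 0.575).

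Other members of the list ranged from lower to higher. Tal1 over all its start sites had 66 and 672 fragments, a ratio of 1.02 (0.778 to 1.31), and Zfpm1, the GATA1 cofactor FOG1, had 125 fragments in 33 of 35 nuclei of cluster 11 and 1095 in cluster 5, a ratio of 1.11 (0.914 to 1.34). Gata1, whose red cell start site is not the one at the 5′ end of the annotated gene, had 15 and 261 over all its start sites, a ratio of 0.595 (0.329 to 1.00). E2f4, a cell cycle factor needed in red cell precursors, had 4 and 166, a ratio of 0.234, and 0.345 over all its start sites, and Stat5b, which acts below the erythropoietin receptor, had 5 and 119, a ratio of 0.408 and 0.515. The highest of the list were Foxo3, a factor of late red cell maturation, with 70 and 390 fragments and a ratio of 1.74 (1.33 to 2.25), and Cbfa2t3, a corepressor of the TAL1 complex, with 18 and 114 and a ratio of 1.53 (0.878 to 2.53). Foxo3 was at 1.82 over all its start sites, whereas Cbfa2t3 was at 0.935 there with 38 and 421 fragments. Epor, the erythropoietin receptor, had 19 and 209, a ratio of 0.883 (0.521 to 1.41).

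Genes of progenitors and early blood cells were low in cluster 11. Of 12 measured promoters, 10 had no fragment, beside 47.5% of all promoters with a like number of fragments in cluster 5 (5 to 225), and the summed ratio was 0.403 (0.268 to 0.584), which was 1.05 on the scale of all fragments. Runx1, a founder of definitive blood, had 0 against 93 fragments in cluster 5, at least 3.19-fold lower. Kit, the stem cell factor receptor, had 0 against 74 (at least 2.54-fold lower), and Myb, a factor of definitive progenitors, 0 against 73 (at least 2.50-fold lower). Such bounds are on the promoter scale. The shift of 1.38 on the log2 scale to that of all fragments leaves no bound below 1 for Kit or Myb. The same holds for Ccnd2, Aqp1 and H1f0. Over all annotated start sites, Runx1 had 5 and 416 (ratio 0.1245), Cdk6 had 0 and 195, Kit had 0 and 104, and Myb had 1 and 114. The exceptions were Lyl1, a relative of TAL1, with 23 and 225 fragments and a ratio of 0.993 (0.617 to 1.53), and Hhex with 6 and 40. Without these 2 genes the list had no fragment in cluster 11 at the main start sites.

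Genes for heme were more even. The 20 measured genes of heme synthesis and iron supply had a summed ratio of 0.971 (0.878 to 1.07), with 2 of 14 that met the minimum at least 2-fold higher, 1 lower (8.88% and 2.61% among all promoters) and a median of 1.13 beside 1.199. The higher ones were Hmox1, described above, and Uros, uroporphyrinogen synthase, with 15 and 65 fragments and a ratio of 2.24 (1.19 to 3.97). Uros was at 1.07 over all its start sites (68 and 656 fragments). The lower one was Cpox, coproporphyrinogen oxidase, with 21 and 599 and a ratio of 0.341 (0.209 to 0.525). Tfrc, the transferrin receptor, had 61 and 435 and a ratio of 1.36 (1.02 to 1.78). Alas2, the first enzyme of the path in red cells, had 2 and 64 fragments at its main start site and 6 and 86 over all of them, a ratio of 0.723 (0.258 to 1.64). Steap3 and Slc11a2, which handle iron in endosomes, were at 0 and at no more than 15 fragments in either cluster at their main start site, and over all start sites had ratios of 0.774 and 1.02.

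Red cell membrane genes were lower as a list at the main start sites, but this depended on the start site. The 21 genes had a summed ratio of 0.570 (0.5002 to 0.646), 0.865 over all start sites and 1.48 on the scale of all fragments at the main ones, and none of 5 that met the minimum passed 2-fold, beside 8.88% higher and 2.61% lower among all promoters. Icam4 (4 and 317 fragments, ratio 0.123) and Ermap (4 and 321, ratio 0.121), both blood group surface proteins, stayed low over all start sites, at 0.126 and 0.271. Aqp1, the water channel of the red cell, had 0 and 72, at least 2.47-fold lower. Rhag, the Rh-associated glycoprotein, had 1 and 93. By contrast Slc4a1, the anion exchanger band 3, had 114 and 854 fragments over all its start sites, a ratio of 1.38 (1.13 to 1.68), and Epb41, protein 4.1 of the skeleton, had 104 and 826, a ratio of 1.30 (1.05 to 1.60). Xk (1.30) and Tspan33 (1.17) were the highest at the main start sites, with intervals that included 1.

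Late maturation and housekeeping genes had summed ratios near or above 1, though most of their medians lay below that of all promoters that met the minimum (1.199). The 20 genes of terminal maturation, enucleation and organelle clearance had a summed ratio of 0.947 (0.858 to 1.04), and 1 of 16 that met the minimum was at least 2-fold lower (Rac1, a GTPase of the contractile ring, 14 and 304 fragments, ratio 0.447) and none higher, beside 2.61% and 8.88% among all promoters. The median of those 16 was 0.923. Xpo7, a nuclear exporter of the late erythroblast, had 26 and 137 fragments and a ratio of 1.84 (1.16 to 2.82), and Ube2o, a ubiquitin ligase that remodels the proteome of the reticulocyte, 38 and 206 and a ratio of 1.79 (1.23 to 2.54). At the low end H1f0, a linker histone, had 0 and 64 (at least 2.20-fold lower) and Alox15, an enzyme of organelle clearance, had 0 and 33. Red cell enzymes and antioxidants had a summed ratio of 1.19 (1.0599 to 1.32) over 14 genes, none of 9 past 2-fold, which became 0.991 over all start sites. The median of those 9 was 1.24. Car2, carbonic anhydrase 2, had 21 and 108 and a ratio of 1.89 (1.12 to 3.03), and G6pdx, the first enzyme of the pentose phosphate path, 17 and 99 and a ratio of 1.67, while Hk1, the first enzyme of glycolysis, had 0 and 16 at its main start site and a ratio of 0.537 over all of them.

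Proteasome subunits had a summed ratio of 1.16 (1.07 to 1.26) over 31 genes, with Psmd3 at 2.34 (1.73 to 3.12) and Psmc4 at 1.93 the highest and Psmc6 at 0.710 the lowest of 18 that met the minimum. Cytosolic ribosomal proteins were even, at 0.984 (0.932 to 1.04) over 79 genes, with 1 of 45 that met it at least 2-fold higher (Rpl14, 2.17) and 2 lower (Rpl18, 0.312, and Rpl11, 0.486), beside 8.88% higher and 2.61% lower among all promoters. Mitochondrial respiration was at 1.0599 (0.968 to 1.16) over 23 genes, with Sdha (1.69) and Cox4i1 (1.57) at the high end and Cox5a (0.639) at the low end of 15 that met the minimum, none past 2-fold. The medians of members that met the minimum were 1.25 for proteasome subunits, 1.08 for ribosomal proteins and 1.18 for respiration, beside 1.199 among all promoters that did. All these maturation and housekeeping lists had summed ratios between 2.46 and 3.08 on the scale of all fragments. On that scale the median of all promoters that met the minimum was 3.12.

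The beta-globin locus differed in shape. It lies on chromosome 7 with its control region upstream of the embryonic genes Hbb-y and Hbb-bh1 and with the adult genes Hbb-bs and Hbb-bt farther downstream. In cluster 11 the tallest 1 kb bin of the locus was 7.5 kb upstream of the Hbb-y start, with 30 fragments. Between 2 kb upstream and 16 kb downstream of the Hbb-y start, around the embryonic genes, cluster 11 had 51 fragments in 18 nuclei and cluster 5 had 273 in 104 nuclei. Between 22 and 43 kb downstream, around the adult genes, cluster 11 had 22 fragments in 13 nuclei and cluster 5 had 1364 in 148 nuclei. The embryonic domain thus held 69.9% (58.0 to 80.1, exact binomial interval) of the fragments of both domains in cluster 11 and 16.7% (14.9 to 18.6) in cluster 5. More fragments fell in the embryonic than in the adult domain in 14 nuclei of cluster 11 and the reverse in 7, while the counts were 15 and 134 in cluster 5. In cluster 5 nuclei with a promoter share in the range of cluster 11, the embryonic domain held 14.2%. The domain limits were drawn after the profile had been seen.

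The control region was near equal only as a sum and only against all of cluster 5. From 25 to 4 kb upstream of Hbb-y there were 66 fragments in 27 nuclei of cluster 11 and 1558 in 152 nuclei of cluster 5, or 128 and 119 on the scale of all fragments. In the 100 cluster 5 nuclei with a promoter share in the range of cluster 11, the level was 211, well above cluster 11. The bin at 7.5 kb gave 30 of the 66, while other tall bins of cluster 5 were lower in cluster 11: between 12 and 13 kb there were 0 and 248 fragments (0 and 19.0 on that scale), at 17.5 kb 2 and 192 (3.87 and 14.7) and at 24.5 kb 3 and 135 (5.81 and 10.3). The bin at 6.5 kb had 8 and 183 (15.49 and 14.03). On the same scale the embryonic domain had 98.8 in cluster 11 and 20.9 in cluster 5, and the adult domain 42.6 and 105. In the 100 cluster 5 nuclei within the share range, the embryonic domain had 29.9 and the adult domain 181. At the adult promoters themselves, Hbb-bs had 2 and 200 fragments (ratio 0.097, 0.012 to 0.356, on the promoter scale) and Hbb-bt had 4 and 190 (0.205, 0.055 to 0.532). Both adult genes are near-identical copies, so fragments could be assigned to either or lost. For the whole locus the ratio to all of cluster 5 was 1.00 (0.844 to 1.18) on the scale of all fragments and 0.386 (0.324 to 0.455) on the promoter scale.

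**Figure D5:**
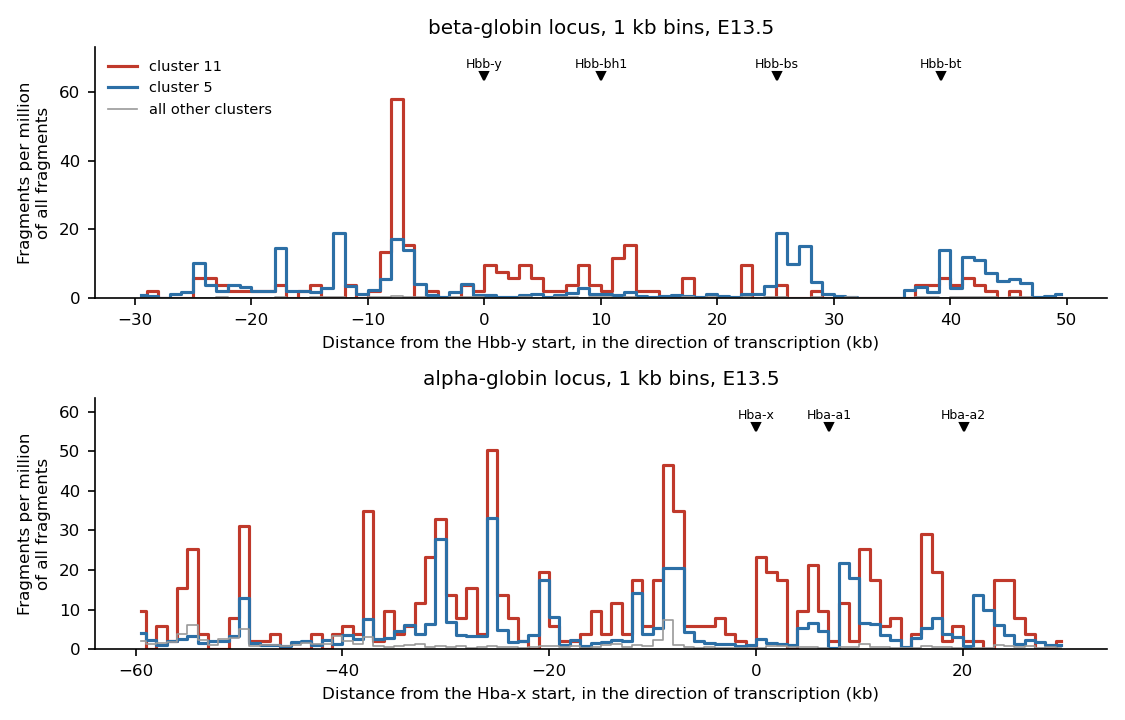
Fragments on the scale of all fragments, out of every 1000000, in 1 kb bins (y axis) along the beta-globin (top) and alpha-globin (bottom) loci in cluster 11 (red), cluster 5 (blue) and all other E13.5 nuclei (grey), by distance from the start of Hbb-y or Hba-x in kb, with gene starts as triangles. Cluster 11 stands above cluster 5 around Hbb-y and Hbb-bh1 and below it around Hbb-bs and Hbb-bt, and its tallest beta-globin bin, 7.5 kb upstream of Hbb-y, reaches 58.1 against 17.2.

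At the alpha-globin locus on chromosome 11, cluster 11 had 446 fragments and cluster 5 had 5734, a ratio of 1.97 (1.78 to 2.16) on the scale of all fragments and 0.756 (0.685 to 0.832) on the promoter scale. The tallest bin of both clusters was 25.5 kb upstream of the Hba-x start, in Nprl3, the neighbouring gene whose introns house the alpha-globin enhancers, with 26 and 433 fragments and a ratio of 0.583 (0.377 to 0.867) on the promoter scale. The promoters of Hba-x (1 and 22 fragments), Hba-a1 (5 and 61) and Hba-a2 (3 and 42) were too thinly covered to be told apart. Better covered bins ran both ways on the scale of all fragments. At 8.5 and 9.5 kb downstream of the Hba-x start, next to Hba-a1, there were 6 and 285 fragments (11.6 and 21.8) and 1 and 235 (1.94 and 18.0), and at 21.5 and 22.5 kb, next to Hba-a2, 1 and 177 (1.94 and 13.6) and 0 and 130 (0 and 9.96). At Hba-x itself the bin at 0.5 kb had 12 and 32 (23.2 and 2.45) and that at 1.5 kb 10 and 19 (19.4 and 1.46). Over gene bodies with 2 kb upstream, Hba-x had 20 and 68 fragments, Hba-a1 had 18 and 158 and Hba-a2 had 4 and 91, the last 2 again being near-identical copies.

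Distal bins were finally compared singly on the scale of distal fragments, which were 31.7% of all fragments in cluster 11 and 62.4% in cluster 5. Only 468 of 2372194 bins met the minimum of 20 fragments, and 397 of them (84.8%) were at least 2-fold higher in cluster 11 and 6 (1.28%) at least 2-fold lower, with a median ratio of 5.83 (2.96 on the scale of all fragments). In the 3469 sites chosen in the other libraries, 947 were higher and 1585 lower with a median of 0.694, so this count too followed the choice of bins. The bins with the most fragments in cluster 11 included 3 that were heavily covered in all other nuclei too: a bin 91 kb from the start of Axin2 (121 fragments in 29 nuclei), a bin 15 kb from Gtpbp4 (97 in 25) and a bin in an intron of Cdk8 (86 in 23), with 61.5 to 80.6 in other nuclei on the scale of all fragments. The remaining 7 of the leading 10 were intergenic, with 59 to 87 fragments in 21 to 31 nuclei. Their nearest genes were Trappc9, Wnt7b, Tex44, Zfp395, Nfe2l3, Foxk1 and Ssc4d, with starts from 6296 bp (Trappc9) to 254170 bp (Nfe2l3) away. Their CpG observed over expected lay between 0.545 and 0.849, and their ratios between 6.80 and 13.3 on the distal scale and 3.46 to 6.77 on that of all fragments. All 7 were also covered in other nuclei, with 13.53 to 27.2 on the scale of all fragments beside 18.0 to 44.0 in cluster 5. The leading 10 were ranked by their fragments in cluster 11, so these higher ratios follow in part from the choice.

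The bins with the firmest higher ratios were barely covered in cluster 5. A bin on chromosome 17 (65961001 to 65962000, mm10), intergenic and 10 kb from the start of Twsg1, had 27 fragments in 13 nuclei of cluster 11 and 7 in 4 nuclei of cluster 5. A bin in an intron of Ralgds, a guanine nucleotide exchange factor, on chromosome 2 (28525001 to 28526000), had 56 fragments in 24 nuclei against 21 in 11 nuclei, with a second bin of the same gene at 23 and 10. Introns of Asmt (23 and 15) and Mgat4b (27 and 21) completed the leading 5. On the scale of all fragments these bins had between 44.5 and 108 fragments in cluster 11, 0.537 to 1.61 in cluster 5 and 0.825 to 4.95 in all other nuclei. These bins met the minimum through cluster 11, so both gaps follow in part from how they were chosen. At the other end, introns of Cdyl (0 fragments against 327 in 106 nuclei of cluster 5), Mgll (1 and 350) and Gmpr (2 and 379) and an intergenic bin near Ly6c2 (5 and 1161) were the 4 of 6 bins past 2-fold lower whose interval lay below 1. The intron bins had 0.506 to 1.07 in other nuclei on the scale of all fragments and 25.1 to 29.05 in cluster 5, whereas the bin near Ly6c2 had 42.8 and 89.0.

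Whole genes gave a blunter picture. Over gene bodies with 2 kb upstream, 10673 genes met the minimum, of which 2503 (23.5%) were at least 2-fold higher in cluster 11 and 2289 (21.4%) lower, with a median of 1.25. Bcl11a (7 and 2328 fragments) had a ratio of 0.059, Runx1 (23 and 3409) of 0.133 and Hmox1 (82 and 107) of 15.1 by this count, in the direction of their promoters. Klf1 (74 and 880) at 1.66 and Nfe2 (96 and 1593) at 1.19 stood above 1 over the gene, beside the median of 1.25, and below 1 at the promoter. Scale and window both differ between these values, so the turn can follow from either. Introns held a smaller share of cluster 11 fragments, and gene length was not accounted for.

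The same clusters in the other libraries were small. At E15.5 the 7 nuclei of cluster 11 had 28.4% (28.2 to 28.7) of their fragments in promoter windows and the 10 nuclei of cluster 5 had 17.8% (17.6 to 17.9). For every 100 promoter fragments there were 8.77 and 30.8 distal site fragments, although the E15.5 cluster 5 nuclei had helped to choose these sites. At E12.5 the only nucleus of cluster 11 had 41.1% and the 10 nuclei of cluster 5 had 10.5%. The embryonic beta-globin domain held 52.6% (40.9 to 64.0) of embryonic and adult fragments in cluster 5 at E12.5 and 7.69% (2.88 to 15.99) at E15.5, while cluster 11 had only 3 such fragments at E12.5 and 11 at E15.5.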

How the data were processed

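Per the file headers and labels, the authors made the deposited fragment files with Cell Ranger ATAC 2.0.0 on mm10. Its fragment ends are already shifted for Tn5 and duplicates are merged. The deposited count beside each fragment gives its read pairs, and the cell table of the authors gives counts of read pairs and fragments per nucleus with a cluster number. Per the methods, the authors integrated the nuclei with spatial profiles on a peak set before clustering, with anchors and Harmony, and the clustering resolution found there is that of the spatial sections (Signac 1.6.0 and Seurat 4.1.0 are named in the submitters' processing notes). Of the columns it holds, 15 were not used.

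Each unique fragment was counted once on chromosomes 1 to 19, X and Y, with GENCODE vM21 gene models and GRCm38 sequence, in Python 3.11.15 (numpy 2.4.6, pandas 2.3.3, scipy 1.17.1, pysam 0.24.0). A fragment counted for every promoter or gene it overlapped and for the distal bin of its midpoint. Fragments under the length of DNA on a nucleosome were called nucleosome-free. Promoter ratios were scaled to all fragments in promoter windows. Ratios over whole genes or gene bodies were scaled to all fragments counted over genes (399910 in cluster 11 and 7874575 in cluster 5). Genes over 500 kb and the Pcdh and Ugt clusters were left out of whole-gene counts. Shares carry exact Clopper-Pearson intervals and ratios the exact conditional interval of 2 counts. The ratio code was tested on simulated data. Doublets were not removed. Bins and promoters needed 20 fragments in cluster 11 and the thinned cluster 5 together. No test was made, since there was 1 library per stage.

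Clusters, gene lists and limits were chosen with earlier results of these data known. Named were the 10 promoters each way past 2-fold whose interval bound was farthest from 1, the distal bins with most fragments (10) and the firmest ratios, and the extremes of each list. Other genes named in the text were chosen after their values were seen. Alternatives changed the promoter window, start sites, minimum, scaling, depth and nuclei.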

Additional observations from a re-analysis of the deposited data

Results flagged for a closer look

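Red cell enzymes and antioxidants stood on opposite sides of 1 with both intervals excluding 1 in the only libraries with several nuclei of both clusters. Their summed promoter ratio of cluster 11 over cluster 5 was 1.19 (1.0599 to 1.32) at E13.5 and 0.543 (0.350 to 0.814) at E15.5, from 28 fragments in 7 nuclei of cluster 11 and 166 in 10 nuclei of cluster 5 at the later stage. Over all start sites the E13.5 ratio was 0.991, so the contrast rests on the main start sites. Proteasome subunits (1.16 and 0.9495) and mitochondrial respiration (1.0599 and 0.705) also crossed 1 between the stages, with an interval that included 1 at 1 stage or more. Epithelial, hepatocyte and megakaryocyte markers were below 1 at E13.5 and above it at E15.5. They had no more than 5 fragments in either cluster at the later stage. Of these, only the epithelial interval excluded 1 at E15.5 (16.1, 1.80 to 761). These differences were not tested, and there was 1 library per stage.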

How the results depend on the processing

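No paired analysis was possible because no test was made and each stage had 1 library. In the order cluster 11 and cluster 5, the promoter share was 48.6% and 18.3% within 1000 bp on either side of start sites, 38.4% and 15.8% with the start sites of all annotated genes, 35.4% and 16.7% as a mean over nuclei, 35.5% and 16.8% after thinning to 1000 fragments, 34.04% and 13.52% weighted by read pairs, and 28.4% and 17.8% at E15.5. It was 21.0% in cluster 5 nuclei within the share range of cluster 11. TSS enrichment was 20.9 and 10.2 over all annotated genes. The nucleosome-free share was 66.5% and 55.7% below 120 bp, and 78.6% and 68.6% weighted by read pairs. CpG-rich promoters took 67.7% and 62.7% at a CpG limit of 0.75, and 80.6% in the thinned cluster 5. Distal site fragments per 100 promoter fragments were 13.45 and 38.4 at a minimum of 5, 5.05 and 12.8 at 15, 9.63 and 25.3 as medians over nuclei, 8.77 and 30.8 at E15.5, 5.47 and 6.35 in sites chosen through cluster 11 of the other libraries, and 26.8 in cluster 5 within the share range. Cluster 11 was above cluster 5 in the shares and enrichment, and below it in distal sites per promoter fragment, in every one of these settings. Distal sites per promoter fragment divide by the fragments that make up the promoter share, so these results are not independent. As a share of all fragments, distal sites chosen through cluster 11 turned to a ratio of 2.24, and those chosen through cluster 5 were at 0.966, both against all of cluster 5.

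Counts past 2-fold moved widely. Promoters higher and lower in cluster 11 numbered 4370 and 16 on the scale of all fragments, 847 and 255 against the thinned cluster 5, and 144 and 2 at a minimum of 50 fragments. Lower promoters numbered 638 at a minimum of 10, 356 within 1000 bp on either side and 920 when chosen in the other libraries. Lower distal bins numbered 23 on the scale of all fragments, 11 with cluster 5 thinned, 48 in 5 kb bins and 21 against cluster 5 within the share range. Higher and lower distal bins numbered 1264 and 166 at a minimum of 10, 43 and 0 at 50, and 947 and 1585 when chosen in the other libraries. Higher genes numbered 4076 on the scale of all fragments, and lower genes 722 at a minimum of 50. Many list ratios crossed 1. On the scale of all fragments they were 1.95 for erythroid factors, 1.05 for progenitor genes, 1.48 for membrane genes, 1.82 for cell cycle genes, 2.37 for embryonic globins, 2.53 for heme, 2.46 for maturation and 2.56 for ribosomal proteins, the last 4 from intervals that included 1. Over gene bodies these 4 were 3.82, 1.54, 1.41 and 1.96, and over all start sites 1.62, 1.02, 1.02 and 1.12. Over gene bodies the others were 1.104 for erythroid factors, 1.15 for membrane genes, 1.12 for cell cycle genes and 1.12 for megakaryocyte markers. All values over gene bodies are on the gene scale, so window and scale changed together and were not separated. Over all start sites red cell enzymes were at 0.991. Leaving out the 3 deepest cluster 11 nuclei moved no count of promoters or distal bins by over 1.5 times. Choosing promoters, bins or sites in the other libraries, restricting cluster 5 by promoter share, joining all start sites of a gene, and the distal site alternatives were added after seeing the data.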

Other observations

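Several housekeeping lists were lower in cluster 11 at E15.5. Cytosolic ribosomal proteins had a summed promoter ratio of 0.765 (0.658 to 0.887) there, mitochondrial respiration 0.705 (0.524 to 0.935) and cell cycle and DNA replication 0.535 (0.400 to 0.705), while proteasome subunits were at 0.9495 (0.733 to 1.22). Erythroid transcription factors were at 0.560 (0.403 to 0.763). Genes of heme (0.811, 0.604 to 1.08), maturation (0.856, 0.644 to 1.12) and the membrane (0.909, 0.651 to 1.25) were also below 1, with intervals that included it. All of these are on the promoter scale and rest on 7 nuclei of cluster 11 and 10 of cluster 5.

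Megakaryocyte markers, a lineage that shares its progenitor with red cells, were lower in cluster 11 at their main start sites, but not in every count. Their 6 promoters had 230 fragments in cluster 5 and 4 in cluster 11, led by Gp1ba (109 and 2) and Gp9 (34 and 1), both platelet adhesion receptors, or 23.0 in cluster 11, 136 in cluster 5 and 53.6 in all other nuclei on the promoter scale. The ratio of 0.169 thus rests on 4 fragments, and was 0.887 over all start sites and 1.12 over whole genes, the last on the gene scale. At E15.5 these markers had 5 fragments in cluster 11 and 4 in cluster 5, a ratio of 4.02 (0.866 to 20.3). Epithelial markers had 5 and 1 there, a ratio of 16.1 (1.80 to 761). Hepatocyte markers had 2 and 0, and endothelial markers 1 and 2. Neuron and mesenchyme markers had 0 and 7 each, and white blood cell markers 0 and 3. Neural progenitor and muscle markers had none in either cluster. The check of the erythroid label given above was made at E13.5.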
